A study of Mus musculus with 6 samples.

Results

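Nuclear genes for the subunits of oxidative phosphorylation were examined in bone marrow derived macrophages of 2 genotypes. Members were the genes whose symbol begins with Nduf followed by a subunit letter, Sdh, Uqcr, Cox4 to Cox8 or Atp5. A mean of at least 10 normalized counts over all libraries was required, and 6 processed pseudogenes among the 88 matching symbols were removed. This left 80 of the 26778 genes in the table, of which 36 belong to complex I, 4 to complex II, 8 to complex III, 15 to complex IV and 17 to complex V. Of the 2 genes below the threshold, Ndufa4l2 had a mean of 2.68 and Cox8b of 1.75 normalized counts, while Cox4i2 at 12.7 and Cox6b2 at 16.3 lay just inside it.

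Marrow was taken from C57BL/6 mice, either wild type (Flt1+/+, n = 3) or heterozygous (Flt1+/-, n = 3) for Flt1, the receptor for vascular endothelial growth factor that is also called VR1. Macrophages were grown in medium with L292-conditioned supernatant, and on day 7 all 6 cultures were moved to starvation medium at 2% oxygen for 6 h. Untreated cultures were not analysed here, so the values compare genotypes under hypoxia and serum starvation and carry no information on the response to the treatment itself. The labels name neither the design of the Flt1 allele nor the mouse behind each library, so p-values measure the spread between libraries, which may in part be technical.

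Oxidative phosphorylation couples the oxidation of NADH and succinate to ATP production in the inner mitochondrial membrane. Complexes I and II feed electrons through ubiquinone to complex III, cytochrome c carries them to complex IV, where oxygen is reduced, and complex V uses the proton gradient to make ATP. In macrophages the balance between this pathway and glycolysis is known to shift with oxygen supply and inflammatory activation.

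Whole read counts could be recovered for each library from the deposited group means for 79 of the 80 members, and for 99.2% of all genes. The exception was Atp5a1, for which only the authors' group means are given. Libraries are lettered A to C within each genotype, written WT for Flt1+/+ and het for Flt1+/-, and the letters cannot be tied to the replicate numbers in the labels. The libraries held about 25320000 to 41520000 counted reads, where genes without recovered counts entered at their group mean. Flt1 itself was too low to check the genotype, at 6.66 normalized counts in Flt1+/+ and 12.7 in Flt1+/- (adjusted p = 0.641, the authors' deposited table). Markers of other cells moved with genotype. Of 12 listed neutrophil and precursor markers, 8 were tested in the authors' deposited table. All 8 were higher in Flt1+/-, where 2.51% of all genes with an adjusted p were higher. The other 4 had a mean below 10 and were not tested, so the calls do not cover them. Their group means in Flt1+/+ and Flt1+/- were 4.96 and 3.09 (Mpo), 0 and 0.66 (Elane), 0 and 2.36 (Prtn3), and 0 and 0.82 (Ctsg). Over the 12 markers, summed normalized counts were 161 to 199 in Flt1+/+ and 3053 to 4038 in Flt1+/-. Of 11 tested macrophage identifiers 0 were higher and 2 (Csf1r and Cd68) were lower, with summed normalized counts over the 7 identifiers with recovered counts of 37383 to 44365 in Flt1+/+ and 29893 to 31985 in Flt1+/-. That sum leaves out the identifiers with the highest counts. Their group means in Flt1+/+ and Flt1+/- were 441691 and 458049 (Lyz2), 294266 and 258965 (Adgre1), 55342 and 47826 (Itgam), and 45697 and 31060 (Csf1r). A second, lower Itgam entry is in the sum. For fibroblasts 1 of 7 tested markers was higher, for B and plasma cells 1 of 2 was lower, for dendritic cells 1 of 2 was lower, and no erythroid marker could be tested. The part of other cells in the values that follow was not tested. In bulk RNA, fewer cells of a type and less RNA per cell cannot be told apart.

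None of the 80 members passed the test for a difference between Flt1+/+ and Flt1+/- macrophages. By the test in the authors' deposited table, 0 of 80 members passed an adjusted p of 0.05, where 6.04% of the 15789 genes with an adjusted p did so. At an unadjusted p of 0.05 the same table counted 1 member, Atp5l, which is 1.25% of the members against 15.8% of all genes. The test of limma on the recovered counts called 0 of 79 members, against 2.33% of the 15361 genes fitted, and 1 member (Atp5l) at an unadjusted p of 0.05, against 17.0%. The median log2 ratio of Flt1+/- over Flt1+/+ was -0.05 over the 80 members, with 30 ratios above 0 and 50 below, beside a median of -0.01 over all genes with a mean of at least 10. The individual ratios ran from -0.37 to 0.22, and their median size was 0.09, beside 0.19 over all genes with a mean of at least 10 and 0.13 over those with a mean of at least 500. A p that misses the threshold does not show that the genotypes are alike, so the intervals are given as well. The 95% interval of the limma fold change lay within 1.5-fold in either direction for 61 of 79 members (77.2%), where 45.5% of all genes fitted had so narrow an interval. Among genes with a mean of at least 500 this held for 60 of 73 members (82.2%) and for 72.3% of all such genes. The interval lay within 2-fold for 71 members (89.9%), against 70.3% of all genes fitted. With a mean of at least 500 it did so for 67 of 73 members (91.8%) and for 91.6% of all such genes, so that at the 2-fold bound the members were close to genes of similar level. The 8 members whose interval passed 2-fold were Ndufa11, Ndufa13, Ndufb7, Ndufs7, Uqcr11, Uqcrq, Cox4i2 and Cox6b2.

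**Figure D1:**
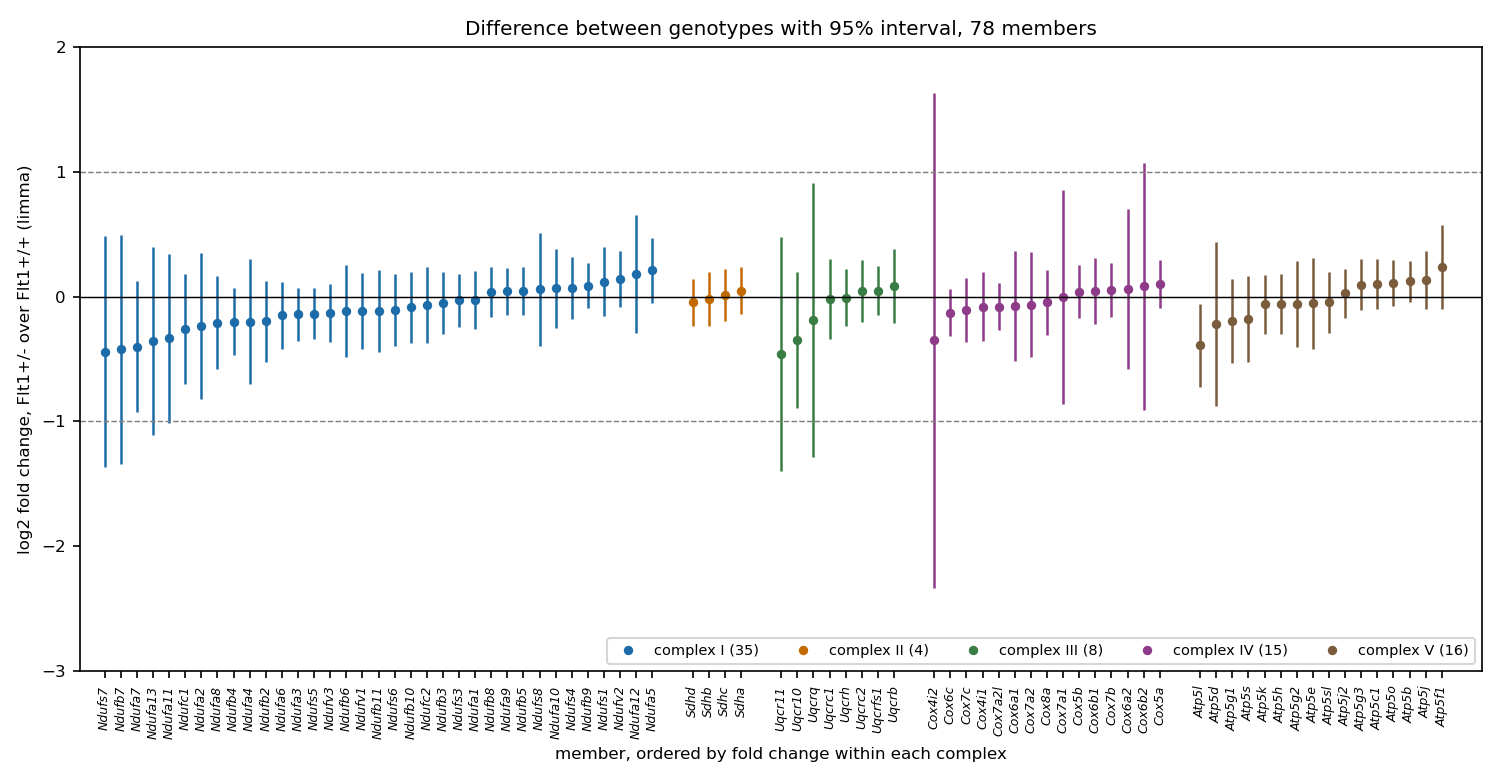
Log2 fold change of Flt1+/- over Flt1+/+ from limma for 78 members (points) with its 95% interval (lines), ordered within each complex; dashed lines mark 2-fold. Most intervals span 0 and lie inside the dashed lines, Atp5l is the one whose interval stays below 0, and Cox4i2 has the widest.

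**Figure D2:**
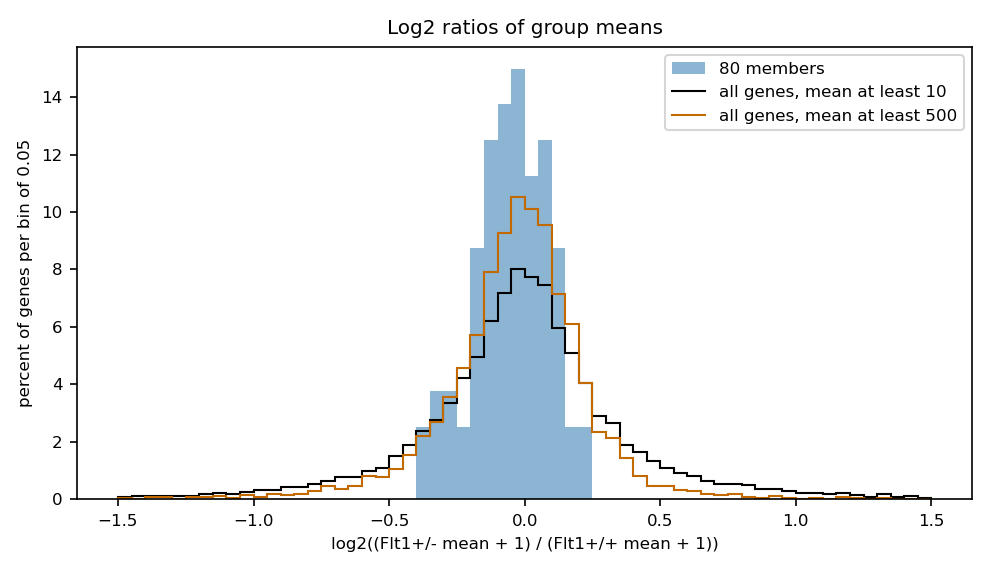
Percent of genes per bin of 0.05 in the log2 ratio of group means (pseudocount 1) for the 80 members, for all genes with a mean of at least 10 and for those with a mean of at least 500. The members lie between -0.37 and 0.22, within the central part of the distributions over all genes.

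Over 79 members the normalized counts summed to 210630, 221762 and 218209 in WT A, B and C and to 207095, 221902 and 217532 in het A, B and C. The group means were 216867 ± 5686 and 215509 ± 7608 (SD, n = 3 each), a ratio of 0.994, and the groups overlapped. By complex, the ratio of summed counts was 0.956 for complex I, 1.01 for II, 0.982 for III, 0.982 for IV and 1.04 for V. Scaled by approximate total counted reads (counts per 1000000) in place of the authors' size factors, the ratio was 1.02 over all members. It was 0.982 for complex I, 1.04 for II, 1.01 for III, 1.01 for IV and 1.07 for V. The direction thus turned for all members and for complexes III and IV. These totals hold genes without recovered counts at their group mean. In WT A, 25165984 of about 37680000 counts were recovered. Whether the turn rests on this fill-in was not tested. With total recovered counts alone, another measure, the median log2 ratio, was -0.03 over all members, 0.02 for complex III and -0.02 for IV. By the authors' size factors these medians were -0.05, -0.005 and -0.04. They are medians over members and not ratios of sums, so they do not decide whether the turn of the sums holds. On the scale of approximate totals the complex V sums were 1694, 1801 and 1735 in WT A to C and 1861, 1871 and 1861 in het A to C. These sums hold 16 of the 17 complex V members and leave out Atp5a1. They did not overlap between the genotypes, whereas the size-factor sums of the same members did. Whether this gap rests on the fill-in of the totals was not tested. No share of all genes without overlap was taken on this scale, so the gap is not read as a result about complex V. The median deviation of the members from their own mean over the libraries, on the log2 scale, was lowest in het A, at -0.12, and lay between -0.01 and 0.06 in the other 5 libraries.

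**Figure D3:**
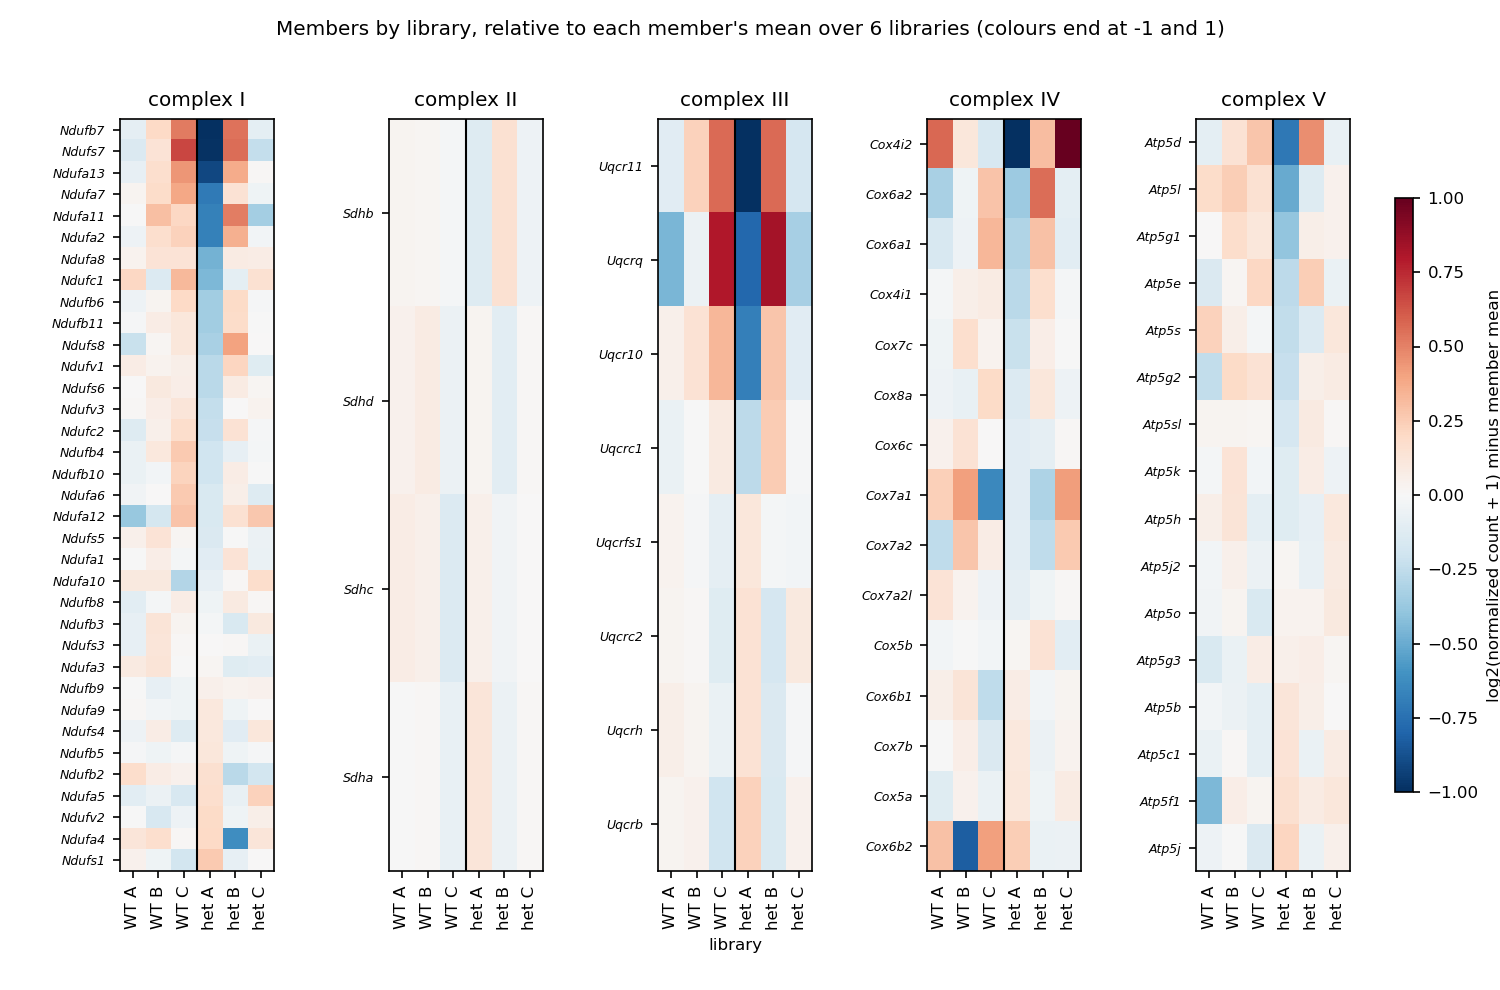
Log2 deviation of each of 78 members (rows, grouped by complex) from its mean over the 6 libraries (columns). The rows show no block that separates the 3 Flt1+/- columns from the 3 Flt1+/+ columns, and the low values of the most variable members fall in het A.

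Complex I, NADH dehydrogenase, is the entry point for electrons from NADH. Its 36 members had a median log2 ratio of -0.10, with 11 above 0 and 25 below. The smallest adjusted p was 0.478 in the authors' deposited table and 0.397 in limma. Ndufs1, the large iron-sulfur core subunit, had 3749, 3527 and 3200 in WT A to C and 4363, 3429 and 3636 in het A to C. The value in het A lay above those of the other 5 libraries, and the log2 fold change of 0.12 (SE 0.13) had an adjusted p of 0.788 by the authors' deposited table.

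The outermost complex I ratios belonged to accessory subunits. Ndufa7 stood at 1419, 1584 and 1819 in WT A to C and at 854, 1541 and 1351 in het A to C, the lowest log2 ratio of the complex. Its deposited log2 fold change was -0.31 with an SE of 0.19 (adjusted p = 0.478, the authors' deposited table), and the limma interval ran from -0.93 to 0.13. Ndufa5, the highest ratio of the complex, stood at 773, 799 and 745 in WT A to C and at 931, 787 and 975 in het A to C. Its het A and het C values lay above all Flt1+/+ values and het B among them, and the log2 fold change of 0.20 (SE 0.13) had an adjusted p of 0.507 by the authors' deposited table. Ndufa4 is counted here by its symbol, although its product is known as a subunit of complex IV. Its normalized counts were 3105, 3220 and 2880 in WT A to C and 3278, 1860 and 3116 in het A to C, so that het B was the low library and het A and C were not. The log2 fold change was -0.13 (SE 0.18, adjusted p = 0.845, the authors' deposited table).

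Complex II, succinate dehydrogenase, also belongs to the tricarboxylic acid cycle and is encoded entirely in the nucleus. Its 4 members had a median log2 ratio of -0.003 and a smallest adjusted p of 0.914 by the authors' deposited table. Sdha, the flavoprotein that oxidizes succinate, had 8892, 8974 and 8450 normalized counts in WT A to C and 9716, 8543 and 8985 in het A to C (log2 fold change 0.05, SE 0.10). Sdhb, the iron-sulfur subunit, had 4383, 4370 and 4253 in WT A to C and 3938, 4772 and 4151 in het A to C. Of the membrane anchors, Sdhc had 3270, 3216 and 2830 in WT A to C and 3221, 3034 and 3127 in het A to C. Sdhd had 3750, 3861 and 3507 in WT A to C and 3706, 3396 and 3665 in het A to C. The genotypes overlapped for each of the 4 genes, and their limma intervals all lay between -0.24 and 0.23.

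Complex III, the cytochrome bc1 complex, passes electrons from ubiquinol to cytochrome c. Its 8 members had a median log2 ratio of -0.005 and a smallest adjusted p of 0.626 by the authors' deposited table. Uqcrh, the hinge protein, had 4563, 4479 and 4183 normalized counts in WT A to C and 4847, 3961 and 4357 in het A to C. Uqcrc2, a core protein, had 3750, 3711 and 3384 in WT A to C and 4050, 3265 and 3927 in het A to C. Uqcrb, which lies near the ubiquinone site, had 1762, 1787 and 1510 in WT A to C and 2031, 1558 and 1780 in het A to C. In all 3 of these genes het A was the highest library and het B the lowest or second lowest, so the extremes lay within Flt1+/-, except that WT C was the lowest for Uqcrb. Uqcr11, a small accessory subunit, ran the other way, with 930, 1179 and 1488 in WT A to C and 472, 1488 and 893 in het A to C. It had the lowest log2 ratio of the complex, but het B was level with WT C, and the log2 fold change of -0.23 (SE 0.24) had an adjusted p of 0.768 by the authors' deposited table.

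Complex IV, cytochrome c oxidase, holds the oxygen-consuming site, and several of its nuclear subunits come as isoforms known from particular tissues or oxygen levels. Its 15 members had a median log2 ratio of -0.04 and a smallest adjusted p of 0.647 by the authors' deposited table, for Cox6c. Cox6c had 3707, 3970 and 3609 normalized counts in WT A to C and 3326, 3370 and 3623 in het A to C, with het C inside the Flt1+/+ range (log2 fold change -0.12, SE 0.10). Cox7a2l, which is related to Cox7a2 and known for joining complexes III and IV into supercomplexes, had 10534, 9838 and 9269 in WT A to C and 9020, 9319 and 9681 in het A to C. Its groups overlapped, with an adjusted p of 0.829 by the authors' deposited table. Cox8a, the isoform known from most tissues, had 3603, 3548 and 4277 in WT A to C and 3397, 4050 and 3612 in het A to C, again with overlap.

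The isoform known from hypoxia and lung, Cox4i2, was low in both genotypes. Its normalized counts were 15.7, 11.2 and 9.05 in WT A to C and 1.63, 12.9 and 25.9 in het A to C, so that both the lowest and the highest library were Flt1+/-. Cox4i1, its counterpart in most tissues, had 9360, 9867 and 10014 in WT A to C and 7865, 10617 and 9360 in het A to C. Per length of exon, Cox4i2 made up 0.243 ± 0.0779% of the pair in Flt1+/+ and 0.274 ± 0.252% in Flt1+/- (SD, n = 3 each). The other hypoxia-associated gene of the family, Ndufa4l2, fell below the threshold, as given above.

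The isoforms known from heart and skeletal muscle were also minor. Cox6a2 had 166, 201 and 254 normalized counts in WT A to C and 161, 306 and 194 in het A to C, and made up 5.93 ± 0.340% of its pair with Cox6a1 in Flt1+/+ and 6.50 ± 0.750% in Flt1+/- (SD, n = 3 each, per length of exon). An exon of Cox6a2 overlaps Itgad on the opposite strand, and the use of strand in counting is not given in the sources used here. Cox6a1 had 2903, 3133 and 4088 in WT A to C and 2643, 3985 and 3019 in het A to C. Cox7a1 had 39.8, 44.8 and 21.1 in WT A to C and 31.0, 26.8 and 45.0 in het A to C, a share of 2.43 ± 0.945% of the pair with Cox7a2 in Flt1+/+ and 2.39 ± 0.196% in Flt1+/-. Cox7a2 had 2066, 2983 and 2598 in WT A to C and 2285, 2071 and 2962 in het A to C. Cox6b2, known from testis, made up 0.226 ± 0.116% of its pair with Cox6b1 in Flt1+/+ and 0.210 ± 0.0217% in Flt1+/-. The shares of the 4 minor isoforms overlapped between the genotypes in each case.

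**Figure D4:**
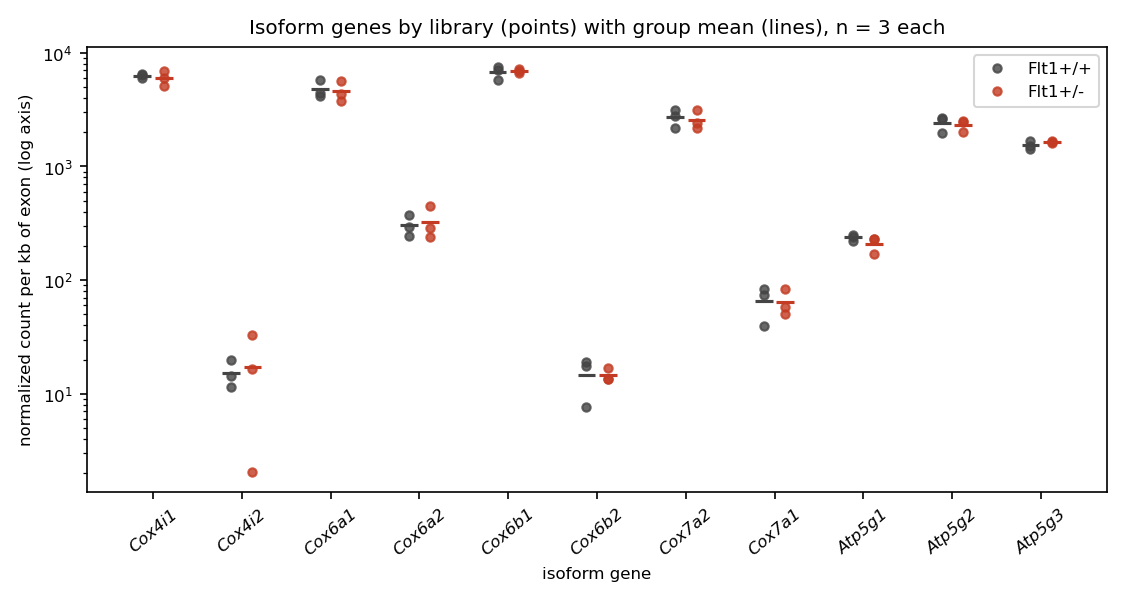
Normalized count per kilobase of exon (log axis) for isoform genes of complexes IV and V, with 3 Flt1+/+ and 3 Flt1+/- libraries as points and group means as lines. Cox4i2, Cox6a2, Cox6b2 and Cox7a1 lie well below their counterparts in both genotypes, and the points of the 2 genotypes overlap for each of those 4 genes.

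Promoters were sought for the Cox4i, Cox6a and Cox7a isoform pairs. RefSeq promoters were matched for Cox6a1, Cox7a1 and Cox7a2 and not for Cox4i1, Cox4i2 or Cox6a2, so only the Cox7a pair is complete. Only the matched promoters are printed. They are the 250 bases before the annotated start from RefSeq (GRCm38.p6), at chr5:115348959-115349208 on the minus strand for Cox6a1, chr7:30183921-30184170 on the plus strand for Cox7a1 and chr9:79759854-79760103 on the minus strand for Cox7a2. Capitals mark matches to the motif of nuclear respiratory factor 1 (GCGCA, any base, then GCGC) or to CCGGAAG, a core of ETS factors such as GABP, on either strand.
Cox6a1: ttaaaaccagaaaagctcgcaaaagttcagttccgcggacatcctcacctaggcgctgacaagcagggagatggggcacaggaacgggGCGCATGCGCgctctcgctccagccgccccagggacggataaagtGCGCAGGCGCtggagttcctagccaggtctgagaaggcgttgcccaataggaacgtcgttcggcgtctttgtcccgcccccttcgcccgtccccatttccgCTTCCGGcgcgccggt
Cox7a1: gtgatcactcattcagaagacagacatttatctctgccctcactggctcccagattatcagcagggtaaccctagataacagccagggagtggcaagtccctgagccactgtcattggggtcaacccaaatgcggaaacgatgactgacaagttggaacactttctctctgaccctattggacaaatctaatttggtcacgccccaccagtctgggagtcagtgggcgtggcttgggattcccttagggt
Cox7a2: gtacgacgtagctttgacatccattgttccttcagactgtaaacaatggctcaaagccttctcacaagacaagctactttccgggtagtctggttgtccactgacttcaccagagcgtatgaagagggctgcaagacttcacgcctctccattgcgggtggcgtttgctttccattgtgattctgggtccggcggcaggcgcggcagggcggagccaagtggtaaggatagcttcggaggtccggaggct

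Cox6a1 held 3 matches, 2 of nuclear respiratory factor 1 and 1 of ETS, and neither Cox7a1 nor Cox7a2 held any. RefSeq promoters were matched for 64 of the 80 members, in 69 windows of the same length. The nuclear respiratory factor 1 letters occurred in 14 of the 69 (20.3%), against 3.74% of 32851 promoters of all genes and 7.77% of 13101 promoters of genes with a mean of at least 10. The ETS letters occurred in 12 (17.4%), against 6.91% and 13.1%. The YY1 letters AAGATGGC occurred in 1 (1.45%), against 1.56% and 2.03%. The hypoxia response core ACGTG occurred in 13 (18.8%), against 16.6% and 21.1%. The median GC content of the windows was 56.0% for members, 52.4% for all promoters and 59.2% for genes with a mean of at least 10. A match is a description of the letters in the window and not evidence of a bound site.

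Complex V, the ATP synthase, had the members with the highest counts and also the single member with an unadjusted p under 0.05. Its 17 members had a median log2 ratio of -0.04, with 8 above 0 and 9 below. Of the catalytic head, Atp5a1 (alpha) had authors' group means of 21928 in Flt1+/+ and 23269 in Flt1+/- (log2 fold change 0.08, SE 0.09, adjusted p = 0.758, the authors' deposited table). Atp5b (beta) had 19786, 19363 and 18841 in WT A to C and 21959, 20981 and 20205 in het A to C. All 3 Flt1+/- values of Atp5b were above all 3 Flt1+/+ values, by a log2 fold change of 0.12 (SE 0.09, adjusted p = 0.607, the authors' deposited table), and the limma interval was -0.04 to 0.29. Per length of exon, Atp5a1 was the highest of the 80 members, at 6995 normalized counts per kilobase in Flt1+/+ and 7422 in Flt1+/-.

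Subunits of the stalk and membrane part differed in direction. Atp5l, the membrane subunit g (chr9:44912557-44920742, mm10), had 2666, 2786 and 2601 normalized counts in WT A to C and 1654, 2142 and 2416 in het A to C. All 3 Flt1+/- values were below all 3 Flt1+/+ values, and het A was the lowest. The log2 fold change was -0.34 with an SE of 0.15 and an adjusted p of 0.196 by the authors' deposited table, and limma gave an interval of -0.73 to -0.06 with an adjusted p of 0.233. Without het A its limma log2 fold change moved from -0.39 to -0.24. An exon of Atp5l overlaps Gm30934 on the opposite strand. Atp5f1, subunit b of the peripheral stalk, had 4365, 6221 and 6067 in WT A to C and 6639, 6308 and 6450 in het A to C. The Flt1+/- values were all above the Flt1+/+ values, but het B exceeded WT B by little and WT A alone was low (log2 fold change 0.20, SE 0.15, adjusted p = 0.595, the authors' deposited table). The genes of the c ring, Atp5g1, Atp5g2 and Atp5g3, are known to encode the same mature protein. Atp5g2 made up 57.4 ± 2.84% of their summed level per length of exon in Flt1+/+ and 55.4 ± 2.65% in Flt1+/-, Atp5g3 36.9 ± 2.60% and 39.6 ± 3.13%, and Atp5g1 5.68 ± 0.404% and 4.98 ± 0.499% (SD, n = 3 each). The shares of Atp5g2 and Atp5g3 overlapped between the genotypes. Those of Atp5g1 did not, at 6.11, 5.62 and 5.31% in WT A to C and 4.41, 5.29 and 5.25% in het A to C, a gap that is small beside the spread within each group. Atp5s and Atp5sl were counted by symbol although their products are not subunits of the complex, and neither was called.

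Across the complexes, 6 of 79 members (7.59%) had genotypes that did not overlap, where 23.6% of all genes fitted did. Every Flt1+/- library was above every Flt1+/+ library for Atp5b, Atp5f1, Atp5o and Ndufb9, 4 members against 11.3% of all genes fitted, and below for Atp5l and Ndufs5, 2 members against 12.3%. Atp5o, the subunit that links the head to the peripheral stalk, had 4414, 4612 and 4089 normalized counts in WT A to C and 4638, 4640 and 4853 in het A to C. Ndufb9 had 1559, 1481 and 1523 in WT A to C and 1623, 1608 and 1611 in het A to C. Ndufs5 had 1399, 1489 and 1369 in WT A to C and 1220, 1350 and 1300 in het A to C. The gaps between the groups were narrow for all 3, and the smallest adjusted p among them in the authors' deposited table was 0.653. Atp5o, Ndufb9 and Ndufs5 were chosen after their values were seen.

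Of the 76 members with a mean of at least 100, 10 (13.2%) had a highest library at least 2-fold above the lowest, where 16.3% of all genes with such a mean did. With a mean of at least 500 it was 10 of 73 members (13.7%), against 11.4% of all such genes. Without the minimum of 100 it was 13 of 79 members (16.5%), against 31.4% of all genes fitted. The 10, chosen after their values were seen, were Ndufs7, Ndufb7, Ndufa13, Ndufa11, Ndufa7 and Ndufa2 of complex I, Uqcr11, Uqcrq and Uqcr10 of complex III, and Atp5d of complex V. Ndufs7, the core subunit that carries the last iron-sulfur cluster before ubiquinone, had 742, 905 and 1310 normalized counts in WT A to C and 413, 1214 and 698 in het A to C. Uqcrq had 722, 957 and 1728 in WT A to C and 576, 1774 and 789 in het A to C. Ndufb7 had 1343, 1644 and 2055 in WT A to C and 676, 2090 and 1338 in het A to C. Each of the 10 was lowest in het A, and the highest library was het B for 6 and WT C for 4. Their median log2 deviation was -0.75 in het A, -0.11 in het C, -0.09 in WT A, 0.17 in WT B, 0.42 in WT C and 0.49 in het B, so that the lowest and the highest library were both Flt1+/-.

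**Figure D5:**
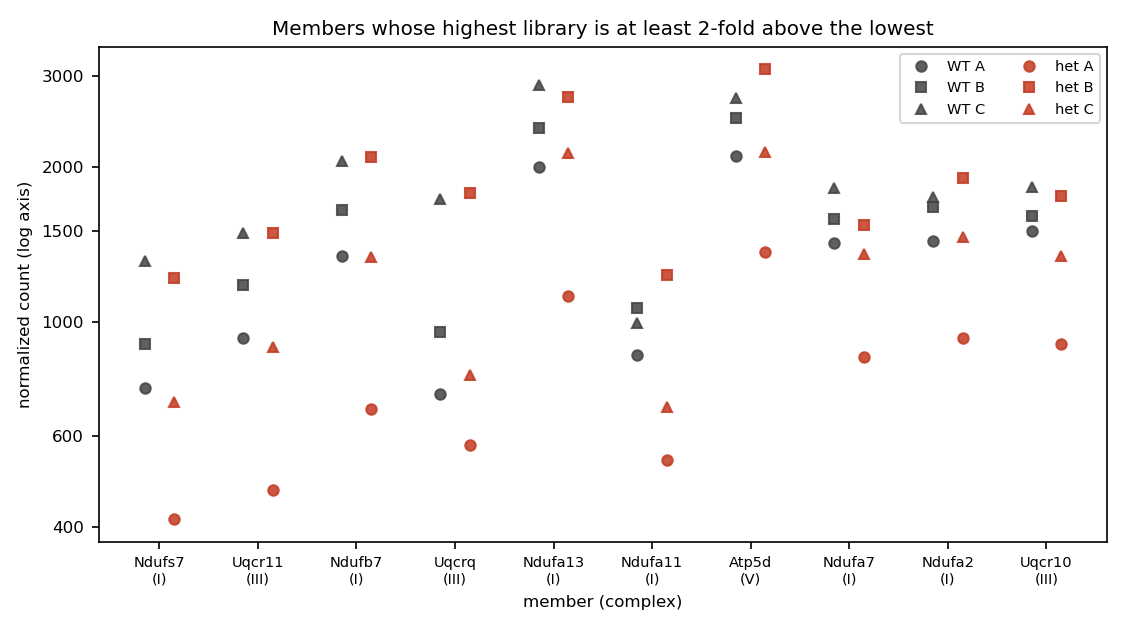
Normalized counts (log axis) of the 10 members with a mean of at least 100 whose highest library was at least 2-fold above the lowest, with 3 Flt1+/+ (grey) and 3 Flt1+/- (red) libraries. The het A point is the lowest for every member, and the het B or the WT C point is the highest.

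GC content moved with this spread. GC content was that of the longest transcript of each gene. The 10 variable members had a median of 55.8% (range 49.4 to 60.4%). The other members with recovered counts and a mean of at least 100 had one of 49.3% (range 37.0 to 63.3%). Across the 79 members, Spearman's rho between GC content and the deviation of a gene in a library was -0.48 in het A, 0.57 in het B, -0.38 in het C, -0.23 in WT A, 0.10 in WT B and 0.40 in WT C. Over all 11007 genes with a mean of at least 100 and a known GC content, rho was -0.64 in het A, 0.50 in het B, -0.22 in het C, -0.0015 in WT A, 0.15 in WT B and 0.43 in WT C. These describe genes that share a library and are not independent. The part of GC content in the members' values was not tested.

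Genes that build or feed the respiratory chain also showed few calls in the authors' deposited table. No gene passed among 15 other respiratory chain proteins, 15 complex I, 4 complex II, 6 complex III and 6 complex V assembly factors, 18 tricarboxylic acid cycle and pyruvate dehydrogenase genes, 11 tested regulators of mitochondrial biogenesis and 75 mitochondrial ribosomal proteins, where 2.51% of all genes were higher and 3.52% lower. Of these 150 genes, 9 had an unadjusted p under 0.05 in that table, where 15.8% of all genes did. In limma 9 did, where 17.0% of all genes fitted did, and limma called 0 of the 150 at an adjusted p of 0.05. With a term for libraries with mt-Co2 reads, limma called 1 of the 75 mitochondrial ribosomal proteins higher. Of 22 complex IV assembly genes, 1 was higher, Cox15, whose product makes the heme A of cytochrome c oxidase. Cox15 had 1458, 1488 and 1531 normalized counts in WT A to C and 1962, 1904 and 1758 in het A to C, a log2 fold change of 0.32 (SE 0.10, adjusted p = 0.0433, the authors' deposited table). The groups did not overlap, as for 23.6% of all genes fitted, while limma gave an adjusted p of 0.112 and did not call it.

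Among 8 tested genes of hypoxic adaptation of the respiratory chain, 0 were higher and 4 were lower in Flt1+/- in the authors' deposited table, and the list's median log2 ratio was -0.45 beside -0.01 over all genes with a mean of at least 10. Pdk1, the kinase that holds pyruvate dehydrogenase inactive, had 2644, 2185 and 2045 normalized counts in WT A to C and 1446, 1133 and 1365 in het A to C (adjusted p = 5.40e-05, the authors' deposited table). Bnip3, a mitophagy receptor, had 5976, 4695 and 4477 in WT A to C and 3030, 2358 and 2405 in het A to C (adjusted p = 2.21e-06, the authors' deposited table). Fam162a, a mitochondrial protein induced by hypoxia, had 1256, 1140 and 1008 in WT A to C and 629, 602 and 577 in het A to C (adjusted p = 1.97e-08, the authors' deposited table). The groups did not overlap for any of these 3, as for 23.6% of all genes fitted. These 3 were named for the smallest adjusted p of the list, so the lack of overlap is not separate support. Higd1a was the fourth (adjusted p = 0.0333, the authors' deposited table) but had an adjusted p of 0.131 in limma. The limma calls numbered 3 with all libraries, 0 without WT A, WT B or het C, 1 without WT C or het B and 2 without het A. Cox4i2, a member that is also on this list, was not among them, and Ndufa4l2 could not be tested.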

How the data were processed

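Per the labels' protocols, a stranded kit that depletes rRNA was used on total RNA to make the RNA-seq libraries. FastQC, TopHat 1.0.0, Cufflinks and build mm10 are named in the submitters' processing notes. How reads were counted, and whether by strand, is not given in the sources used here, so values of the 25 members with an antisense exon overlap are uncertain. Exons of Atp5o, Ndufb9, Ndufb8, Ndufb2 and Atp5g2 also overlap another annotated gene on the same strand. How reads shared by such genes were handled is not given either. Column names are those of DESeq2 output, per the file headers. The group columns hold a signal made by the authors, the mean of size-factor normalized counts over the libraries of a group. The log2 fold changes with their standard errors, the score (their quotient) and the p-values are as deposited, and a positive change means a higher Flt1+/- level. Deposited and limma changes can differ in size (Uqcr11, -0.23 and -0.46) or in sign (Cox4i2, 0.03 and -0.35). Deposited changes can also lie nearer 0 than the log2 ratio of the same group means (Uqcr11, -0.23 and -0.33, and Cox4i2, 0.03 and 0.16). Whether they were shrunk toward 0 is not given in the sources used here. An adjusted p was present for 15789 genes. The design foresaw per-library counts or group means, and the file gave group means.

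Group means with 15 significant digits were solved for the 3 whole counts behind them, which gave an answer in both groups for 26571 of 26778 genes. Where several solutions fitted, the one that alone kept every library within a set range around the group mean was taken. This choice favours libraries of similar level, and the number of genes it concerned is not given here. Size factors recomputed from these counts lay within 0.0798% of those used. limma 3.58.1 (R 4.3.3, trend) was fitted to log2(normalized count + 1) of 15361 genes with a mean of at least 10, with Benjamini-Hochberg adjustment over all of them. The pseudocount understates the change of low genes. The recovery and the fit were first tested on simulated data. Named members were those called, the 2 with the highest mean and the outermost ratios per complex, all of complex II and listed isoforms. The values of 1 member are not reported here, although it counts in the totals. Members and lists were chosen with earlier results of these data known. Promoter sequences are from RefSeq. Alternatives covered thresholds, pseudocounts, scaling and omitted libraries.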

Additional observations from a re-analysis of the deposited data

How the results depend on the processing

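No paired analysis was possible because the columns carry no replicate numbers. No member was called in the deposited table at an adjusted p of 0.1, or by limma under any setting run: a minimum mean of 1 in place of 10, scaling by total recovered counts (which moved the median of all genes by 0.02), a pseudocount of 5, a term for libraries with mt-Co2 reads, or each library left out. With that term 11 members, and without het B 9, had an unadjusted p under 0.05. The share of all genes at this unadjusted threshold in these fits is not given here, so the counts are not read as a result about the members. At an adjusted p of 0.05, limma called 520 of 15361 genes with the term and 375 without het B.

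With one library left out, the median log2 ratio ran from -0.10 to 0.0069 over all members, from -0.138 to 0.00025 in complex I (highest without het A), -0.041 to 0.0204 in II, -0.0405 to 0.012 in III, -0.0328 to 0.0499 in IV (highest without WT B) and -0.0655 to 0.0453 in V (highest without het A). Within the libraries with mt-Co2 reads (WT A, WT B and, as the single Flt1+/- library, het A) the median over all members was -0.154, and within the others -0.01. The cause was not tested.

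Of 24 named members with a limma value, 14 changed sign in some omission and 0 were called in any. Their log2 fold changes ran from -0.183 to 0.0331 (Cox4i1), -1.07 to 0.608 (Cox4i2), -0.24 to 0.0711 (Cox6a1), -0.203 to 0.257 (Cox6a2), -0.325 to 0.199 (Cox7a1), -0.212 to 0.0577 (Cox7a2), -0.116 to 0.0403 (Cox8a), -0.348 to 0.0605 (Ndufa4), -0.0013 to 0.0915 (Sdha), -0.101 to 0.038 (Sdhb), -0.0526 to 0.0516 (Sdhc), -0.0138 to 0.177 (Uqcrb), -0.0122 to 0.143 (Uqcrc2) and -0.0846 to 0.061 (Uqcrh). Among named members that kept their sign, the value moved by over 1.5 times for Uqcr11 (-0.858 to -0.0305), Ndufa7 (-0.574 to -0.148), Ndufs1 (0.0192 to 0.193) and Atp5l (-0.511 to -0.238), each nearest 0 without het A. It also did for Atp5f1 (0.0734 to 0.329, nearest 0 without WT A), Cox7a2l (-0.125 to -0.0326, without WT A) and Sdhd (-0.0852 to -0.0066, without het B). The fits without one library called between 44 and 375 of all genes.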

Other observations

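Transcripts encoded in mitochondrial DNA, which supply the other subunits of complexes I, III, IV and V, gave 0 calls among 6 tested in the authors' deposited table. The normalized counts of mt-Co2 were 4260, 4070 and 0 in WT A to C and 4751, 0 and 0 in het A to C. The normalized counts of mt-Nd6 were 0, 0 and 15973 in WT A to C and 0, 15937 and 17826 in het A to C. Each library thus listed exactly one of these 2 genes at 0, and both patterns occurred in both genotypes. mt-Nd1 was listed at 0 in WT A and het A. No difference in level is drawn from these zeros, whose cause was not tested.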
